A study of Homo sapiens with 2 samples.

Results

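Wnt proteins are secreted, lipid-modified ligands that bind Frizzled receptors on neighboring cells. In the canonical branch, Frizzled and an LRP co-receptor stop the destruction complex, beta-catenin accumulates, and it acts with TCF/LEF factors on target genes. The noncanonical branches, which control cell polarity and calcium, run through Frizzled, ROR and RYK receptors without beta-catenin. Secreted antagonists such as DKK1 and the SFRP proteins keep ligands from their receptors. The pathway is known for its part in the renewal of stem cells and of cancer cells with stem-like properties.

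The members described here are 65 genes of this pathway, chosen by name: all gene probes on the array for WNT and FZD genes with a number, DKK1 to DKK4, SFRP1 to SFRP5, and 28 further receptors, antagonists, modifiers and transducers. No expression value entered this rule, but the members were chosen with earlier results of these data known. They are 65 of 27191 gene names with a probe and had 82 probes, of which 37 were measured. Measured means that a probe was well above background, by the flag of the array software, in ALDH+ or in ALDH- cells on both arrays. By this rule 33 of the 65 members were measured, which is 50.8% of them, against 13704 of the 27191 gene names, or 50.4%.

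The cells were RMG1, an established line of ovarian clear cell adenocarcinoma. They were sorted by the ALDEFLUOR assay, a fluorescent substrate of aldehyde dehydrogenase (ALDH), into ALDH+ cells, the population enriched for stem-like cancer cells, and ALDH- cells. RNA of both populations was hybridized together to 2 two-color arrays of 60-base probes, ALDH+ cells being in Cy5 and ALDH- cells in Cy3 on one of them (the Cy5 array below) and the reverse on the other (the Cy3 array). Both arrays carried the same 2 RNA extracts, so there was 1 sample per population and no test between them. The SD given below is that of the 2 arrays and is technical only. The sample labels and the results of the study name RMG1, whereas its methods name AMOC2, a serous line, as the source of the RNA.

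Each array had 43118 spots of gene probes and no saturated one. All 10 markers of the epithelium of this tumor type were measured, among them PAX8 (-0.74, the only epithelial marker past 1.5-fold), and no fibroblast marker of 7 was. Of 9 leukocyte markers, 5 were measured with mean log2 ratios between -0.19 and 0.45, and PTPRC, the defining one, had a ratio of 0.04. CDH5 was the measured one of 4 endothelial markers, with 0.19. Of 4 ALDH genes, 3 were measured. ALDH1A3 had the highest mean, 0.61, ALDH1A2 had 0.36 and 0.03 on the arrays, and ALDH3A1 changed sign with 0.40 and -0.03. ALDH1A1 was not measured.

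Genes on which the results turn are shown by the first 30 bases of the probe, from 5′ to 3′, so that the transcript stretch behind each ratio can be identified. WNT5A and WNT6 are the ligands that differed most, WLS handles ligands before release, LRP6 is a co-receptor, and RNF43, ZNRF3 and LGR4 set the amount of Frizzled at the surface. WNT5B is shown because it is the closest relative of WNT5A. Capitals are not used because no position is singled out, and whether a probe lies in coding sequence or in a UTR was not determined here.
WNT5A: gcatcttagaccatttttatatgcagtgta
WNT5B: cactaggccaagaggccctatgaaggtggc
WNT6: tggaaaaaagccagtctaaaggcctctgga
WLS: cagtcacattgattgtacttgtatacgcac
LRP6: gcccttgtccacttattcacttccctcctt
RNF43: gggtatttatatctgaaccagacagacgct
ZNRF3: ctcaggaggaactcttacctggaaattggg
LGR4: aatgtggcttctgttcatttcgtttaatta

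In hg19, the build of the array files, the WNT5A probe lies on the minus strand at chr3:55499800-55499859. The WNT5B probe is on the plus strand at chr12:1755801-1755860, and that of WNT6 is on the plus strand at chr2:219738852-219738911. The WLS probe lies on the minus strand at chr1:68564208-68564267. LRP6 was measured on the minus strand at chr12:12269064-12269123 and LGR4 on the minus strand at chr11:27387919-27387978. The probes of the homologous ligases are on the minus strand at chr17:56431063-56431122 for RNF43 and on the plus strand at chr22:29449612-29449671 for ZNRF3. Among the 82 member probes, the longest run of identical bases between probes of different members was 11 of 60. Probes were compared only with each other and not with transcripts, so whether a probe also reads a relative was not tested.

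Of the 33 measured members, 12 had a mean ratio above 0 and 21 below 0. Of all 13704 measured genes, 6797 were above 0 and 6907 below. The median log2 ratio of the members was -0.06, against -0.0024 over all measured genes. One member, WNT5A, was more than 2-fold higher in ALDH+ cells, where the share of all measured genes was 0.212%. One, WNT6, was more than 2-fold lower, where that share was 0.708%. At 1.5-fold, which is 0.585 on the log2 scale, 3 members were higher (WNT5A, RNF43 and WLS) and 2 were lower (WNT6 and PORCN). The shares of all measured genes past 1.5-fold were 1.51% higher and 4.58% lower. Just short of this threshold were WNT3 with -0.58 and LRP6 with -0.57. On both arrays 6 members were higher and 15 were lower, and the shares of all genes were 33.7% and 36.1%. With so few members past a threshold, these counts describe single genes and not the group. In RNA from sorted populations, fewer cells that express a gene and less RNA of it per cell cannot be told apart.

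**Figure D1:**
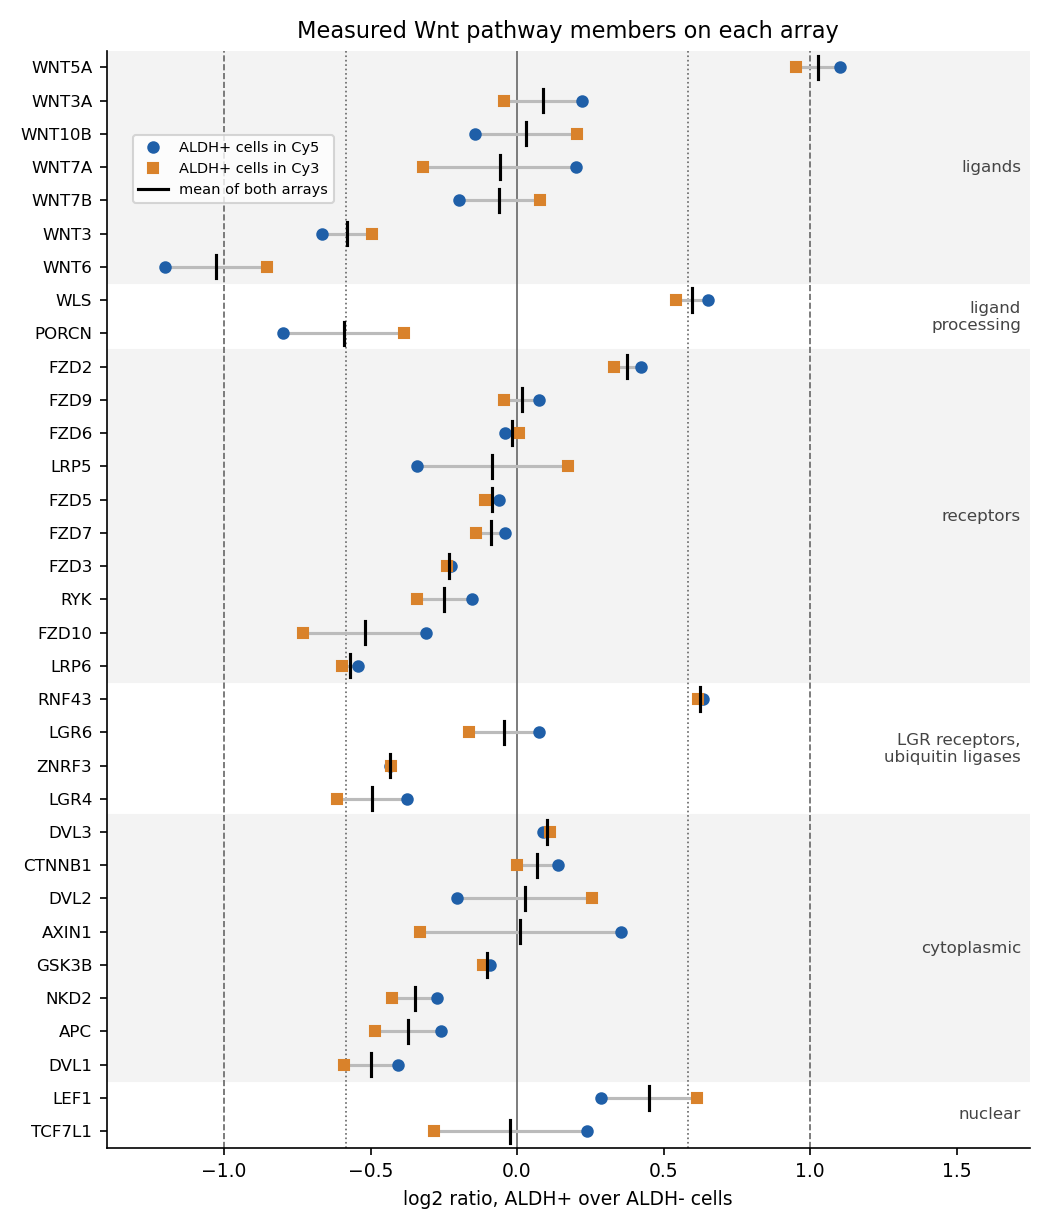
The log2 ratio of ALDH+ over ALDH- cells (x axis) for each of the 33 measured members (y axis), grouped by role. Circles are the Cy5 array and squares the Cy3 array, named by the dye of ALDH+ cells, black bars are their means, dotted lines mark 1.5-fold and dashed lines 2-fold. WNT5A, WLS and RNF43 stand to the right and WNT6, WNT3 and PORCN to the left on both arrays, while WNT7A, LRP5, AXIN1 and TCF7L1 lie on opposite sides of 0.

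Among the ligands, 7 of 19 were measured, 3 with a mean above 0 and 4 below. The scanner signals can be set side by side within 1 dye, before any normalization and across the arrays. For WNT5A, a ligand best known for the noncanonical branch, the Cy5 signal was 251 in ALDH+ cells and 96.1 in ALDH- cells. The Cy3 signal was 227 in ALDH+ cells and 158 in ALDH- cells. ALDH+ cells were thus brighter in both dyes. The 95th percentile of the 153 negative control spots was 59.1 and 50.6 in Cy5 and 155 and 146 in Cy3 on the 2 arrays, so the Cy3 signal of ALDH- cells was close to that of an empty spot. In ALDH+ cells both arrays had the WNT5A probe well above background, and in ALDH- cells 1 of the 2 did.

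The Cy5 array gave WNT5A a log2 ratio of 1.10 and the Cy3 array 0.95. The mean of these, 1.03 ± 0.10 (SD of 2 arrays), is 2.04-fold and passed 2-fold by less than the SD of the arrays. WNT5A met the rule for a measured gene through ALDH+ cells, in which it was brighter, so the size of the difference is uncertain. By the log ratio of the array software the mean of WNT5A was 2.14, and with plain subtraction of the local background it was 1.05. Why the software's ratio was larger was not tested. WNT5B, whose signals were 85.6 and 76.3 in Cy5 and 151 and 151 in Cy3 for ALDH+ and ALDH- cells, was not measured. No level can be set between these ligands, since each probe has its own affinity.

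WNT6, a ligand expressed in epithelia, was the reverse of WNT5A in size and sign. Its Cy5 signal was 526 in ALDH+ cells and 1013 in ALDH- cells. In Cy3 it was 394 in ALDH+ cells and 725 in ALDH- cells. ALDH- cells were brighter in both dyes, at signals well above those of the negative controls. The log2 ratios were -1.20 on the Cy5 array and -0.85 on the Cy3 array, the order in which pairs of ratios are given from here on. Their mean of -1.03 ± 0.25 (SD of 2 arrays) is 2.04-fold lower in ALDH+ cells, 84th from the lowest of all measured genes, and only the Cy5 array passed 2-fold by itself.

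WNT3, a canonical ligand, was lower on both arrays with -0.67 and -0.49. The mean was -0.58 ± 0.12, and its signal was lower in ALDH+ cells in both dyes, at 492 against 678 in Cy5 and 356 against 508 in Cy3. The other 4 measured ligands had means between -0.06 and 0.09, and each changed sign between the arrays. They were WNT3A (0.22 and -0.04), the canonical ligand used to stimulate the pathway in culture, WNT10B (-0.14 and 0.21), WNT7A (0.20 and -0.32) and WNT7B (-0.20 and 0.08). For them no direction can be given.

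The other 12 ligands, WNT1, WNT2, WNT2B, WNT4, WNT5B, WNT8A, WNT8B, WNT9A, WNT9B, WNT10A, WNT11 and WNT16, were not measured. Several Wnt genes are neighbors in the genome. In the RefSeq gene order (GRCh38.p14), 3 pairs of members were adjacent protein-coding genes, and in all 3 only one of the pair was measured. WNT6 was measured and WNT10A beside it was not, WNT3 was measured and WNT9B was not, and WNT10B was measured and WNT1 was not. As 50.4% of all gene names were measured, these 3 pairs are a description and not a pattern.

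**Figure D2:**
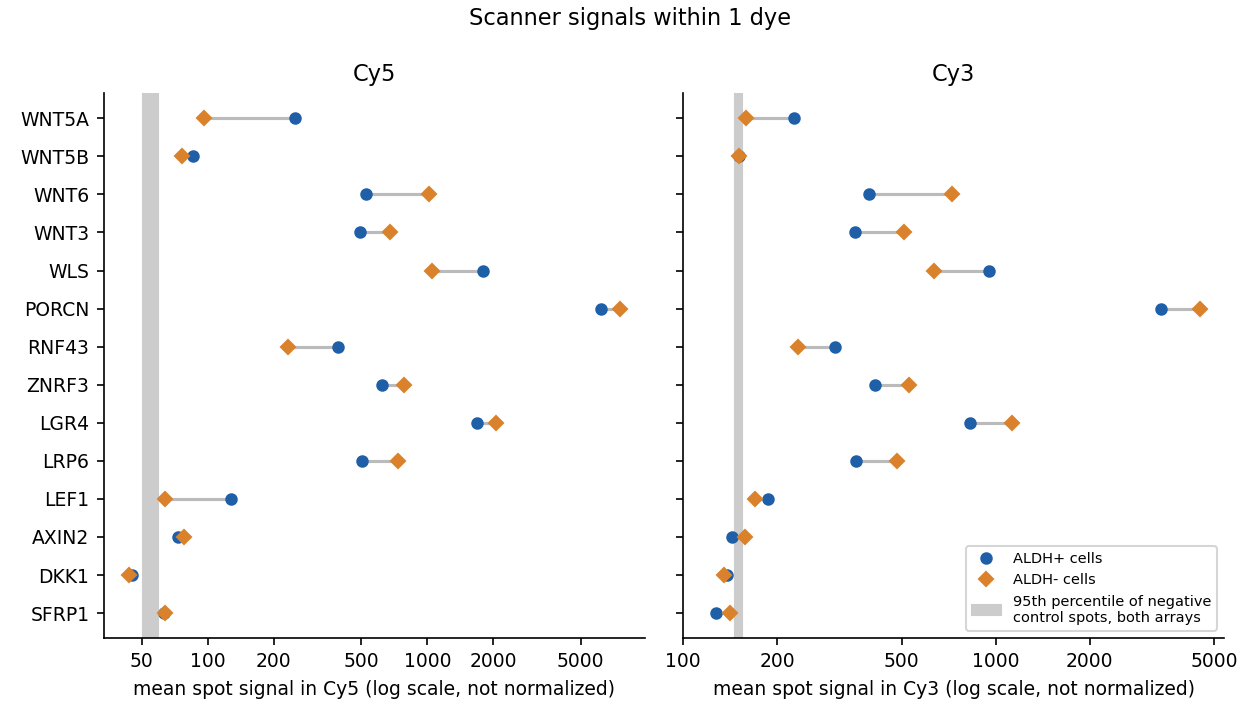
Mean spot signals as scanned, not normalized (x axes, log scale), for 14 members (y axis) in Cy5 on the left and Cy3 on the right. Circles are ALDH+ cells, diamonds ALDH- cells, and the gray band spans the 95th percentiles of the negative control spots of both arrays. WNT5A, WLS and RNF43 are brighter in ALDH+ cells and WNT6, WNT3, PORCN, ZNRF3, LGR4 and LRP6 in ALDH- cells in both dyes, while DKK1 is at the level of empty spots.

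Both proteins that handle every ligand before its release were measured, and they moved apart. WLS carries the finished ligand to the cell surface. Its log2 ratio was 0.65 and 0.54, with a mean of 0.60 ± 0.08, or 1.51-fold higher in ALDH+ cells. Its Cy5 signals were 1799 and 1049 and its Cy3 signals 954 and 633 in ALDH+ and ALDH- cells, brighter in ALDH+ cells in both dyes. A second WLS probe, on the minus strand at chr1:68591628-68591687 and made for another transcript, gave 0.51 and 0.05 with a mean of 0.28. The mean over both WLS probes, 0.44, was below 1.5-fold.

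PORCN, the enzyme that attaches the lipid without which most Wnt ligands are not secreted, had a single measured probe. Its log2 ratios were -0.80 and -0.39, with a mean of -0.59 ± 0.29, or 1.51-fold lower in ALDH+ cells. The signals were 6152 and 7575 in Cy5 and 3393 and 4511 in Cy3 for ALDH+ and ALDH- cells. PORCN was lower on both arrays and past 1.5-fold on one. Its mean was short of 1.5-fold at an offset of 10 (-0.58) and with median centring (-0.35). It stayed past 1.5-fold without background correction, with plain subtraction of the local background and by the software's ratio (-0.62).

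Among the receptors, 10 of 15 were measured, 2 with a mean above 0 and 8 below, with a median of -0.09. Of all measured genes, 49.6% were above 0. None passed 1.5-fold. One was higher and 6 were lower on both arrays, against the 33.7% and 36.1% of all genes given above. LRP6, the co-receptor that is phosphorylated when a canonical ligand binds, had the lowest mean, from -0.54 and -0.60, with an SD of 0.04, although FZD10 was lower on the Cy3 array, with median centring, at an offset of 10 and by the software's ratio. Its signals were 505 and 739 in Cy5 and 358 and 484 in Cy3 for ALDH+ and ALDH- cells, lower in ALDH+ cells in both dyes. Its homolog LRP5 had -0.34 and 0.17, which differ in sign, and a mean of -0.08 ± 0.36.

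FZD2, a receptor linked to WNT5A signaling, was the highest receptor, with 0.42 and 0.33 and a mean of 0.38 ± 0.07. FZD10 had -0.31 and -0.73 and a mean of -0.52 ± 0.30, but in ALDH+ cells only 1 array had it well above background, and the software's ratio for it was -1.45. RYK, a noncanonical receptor, had -0.25 ± 0.13 and FZD3, linked to planar polarity, -0.23 ± 0.01. FZD5, FZD7, FZD6 and FZD9 had means between -0.09 and 0.02. FZD5, whose probe was printed 10 times, had -0.06 from 8 spots and -0.11 from 10, with an SD between spots of 0.12 and 0.09. ROR1, ROR2, FZD1, FZD4 and FZD8 were not measured.

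None of the 10 secreted antagonists with a probe was measured. Of these, DKK1, DKK2 and DKK4 block LRP co-receptors, and DKK3 is their relative. SFRP1, SFRP2, SFRP4, SFRP5 and FRZB bind ligands or Frizzled, and WIF1 binds ligands. For 5 of the 10, DKK1, DKK2, SFRP4, SFRP5 and WIF1, no signal in any of the 4 channels was above the 95th percentile of the negative control spots. DKK1, an inhibitor that is itself a canonical target, had 45.3 and 43.6 in Cy5 and 138 and 135 in Cy3 in ALDH+ and ALDH- cells. SFRP1, with 63.5 and 63.7 in Cy5 and 127 and 141 in Cy3, was above that percentile in 2 channels. DKK3, FRZB and SFRP1 had the software's flag in ALDH- cells on 1 array, as did a second DKK3 probe in each population, and the other 7 antagonists had it on neither array. No antagonist met the rule for a measured gene, so no ratio is given.

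Of all 32 members that were not measured, 11 had no channel above the 95th percentile of the negative control spots and 4 had 1. Another 8 were above it in 2 channels, 7 in 3, and FZD1 and TCF7 in all 4. All 33 measured members were above it in all 4 channels.

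Of the 5 LGR receptors and ubiquitin ligases, 4 were measured. RNF43 and ZNRF3 are homologous transmembrane ligases that remove Frizzled from the cell surface, and they differed in direction. RNF43 had 0.63 and 0.62, with a mean of 0.63 ± 0.01, or 1.54-fold higher in ALDH+ cells, 169th from the highest. Its signals were 394 and 232 in Cy5 and 307 and 233 in Cy3 for ALDH+ and ALDH- cells. ZNRF3 was lower on both arrays, with -0.43 on each and an SD of 0.0014, or 1.35-fold. Its signals were 620 and 781 in Cy5 and 410 and 527 in Cy3 for ALDH+ and ALDH- cells. A second ZNRF3 probe had the same direction, with -0.30 and -0.06 and a mean of -0.18, and in ALDH+ cells passed background on 1 array.

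LGR4 is a receptor for R-spondins, which inactivate both ligases. It had -0.37 and -0.62 and a mean of -0.49 ± 0.17, or 1.41-fold lower in ALDH+ cells, with signals of 1682 and 2055 in Cy5 and 829 and 1129 in Cy3. LGR6 changed sign, with 0.08 and -0.16. LGR5, the marker of intestinal stem cells, was not measured: its signals of 43.6 and 46.9 in Cy5 and 126 and 140 in Cy3 were those of empty spots.

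Of 10 cytoplasmic members, 8 were measured, 4 with a mean above 0 and 4 below, and none passed 1.5-fold. CTNNB1, which encodes beta-catenin, had 0.14 and -0.00085 from 10 spots each, with a mean of 0.07 ± 0.10. Spots of the probe differed by an SD of 0.04 and 0.05 within the arrays, so the arrays differed more than the spots did. A second CTNNB1 probe gave 0.08. GSK3B, the kinase of the destruction complex, also read from 10 spots, had -0.09 and -0.12 with a mean of -0.10 ± 0.02, and its spots an SD of 0.05 and 0.06. These most replicated probes thus gave differences of 1.05-fold for CTNNB1 and 1.075-fold for GSK3B.

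The scaffolds of the destruction complex were less certain. AXIN1 had 0.35 and -0.33, the largest SD of the 33 measured members at 0.49, and no direction. APC had -0.26 and -0.49 and a mean of -0.37 ± 0.16 from a probe that in ALDH+ cells passed background on 1 array, and its other probe, printed 10 times, was not measured. The Dishevelled proteins, which pass the signal from Frizzled, differed among themselves. DVL1 was lower with -0.41 and -0.59 and a mean of -0.50 ± 0.13, DVL3 had 0.10 ± 0.02, and DVL2 changed sign with -0.20 and 0.26. A second DVL1 probe gave -0.13, and the mean over both DVL1 probes was -0.31. With median centring DVL1 had -0.16, so the size of its difference varied with the processing. NKD2, an inhibitor of Dishevelled, had -0.35 ± 0.11.

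AXIN2 and NKD1, inhibitors that canonical signaling switches on, were not measured. AXIN2 had 73.5 and 78.0 in Cy5 and 143 and 158 in Cy3 in ALDH+ and ALDH- cells. It was above the negative control percentile in 3 of 4 channels, and NKD1 in 1.

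Of the 4 nuclear factors, LEF1 and TCF7L1 were measured, and TCF7 and TCF7L2 were not. LEF1, a partner of beta-catenin that is also a target, had 0.29 and 0.61 with a mean of 0.45 ± 0.23. Its Cy5 signal was 128 in ALDH+ cells and 64.0 in ALDH- cells, and its Cy3 signal 186 and 170. In ALDH- cells it passed background on 1 array, and by the software's ratio its mean was 2.39, or 5.22-fold. The size of the LEF1 difference varied with the processing. It was 0.38 without background correction, 0.49 with plain subtraction of the local background and 0.72 at an offset of 10. Why the software's ratio was larger was not tested. LEF1 met the rule for a measured gene through ALDH+ cells, in which it was brighter, and was left out when both populations had to pass the flag. TCF7L1, a repressor of the family, had 0.24 and -0.28 and in ALDH+ cells passed background on 1 array.

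**Figure D3:**
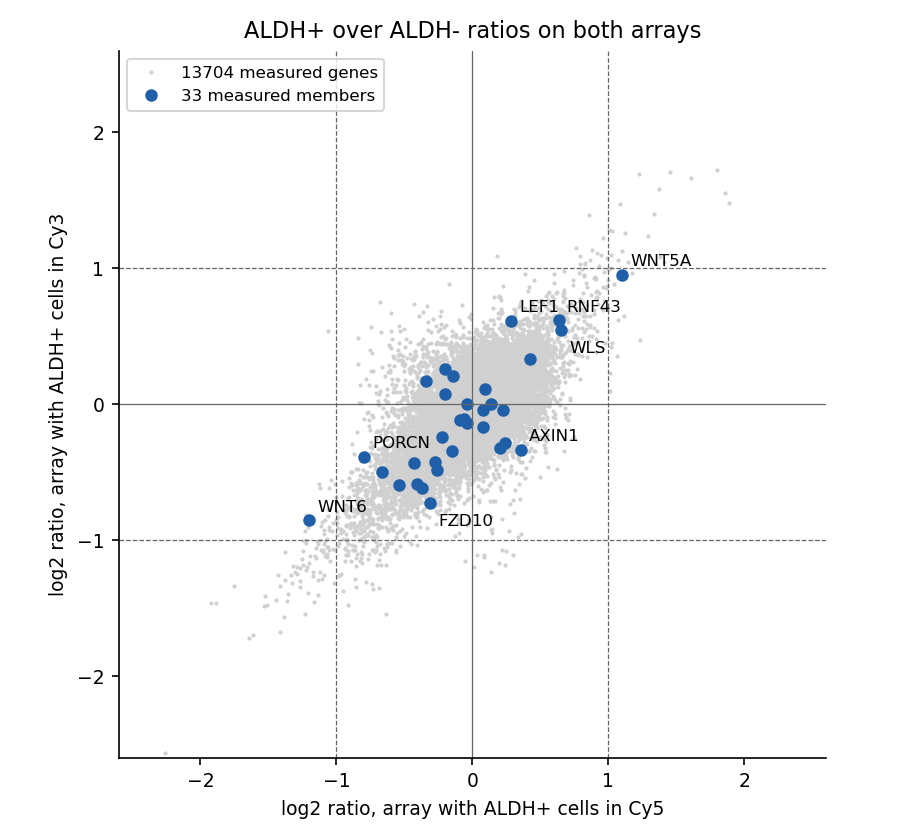
The log2 ratio of ALDH+ over ALDH- cells on the Cy5 array (x axis) against that on the Cy3 array (y axis), for all 13704 measured genes (gray) and the 33 measured members (blue). Dashed lines mark 2-fold. WNT5A and WNT6 lie at opposite ends of the members, and most others within the body of all genes.

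Other genes of the pathway were taken from 3 lists, each described by its counts and median. Among 54 regulators of the pathway (R-spondins, kinases, co-repressors, co-activators and others), 38 were measured. Of these, 8 had a mean above 0 and 30 below, 27 of them lower on both arrays, with a median of -0.19 against -0.0024 for all genes. Over all measured genes 6797 of 13704 had a mean above 0 and 36.1% were lower on both arrays. One regulator was lower past 2-fold (0.708% of all genes), MACF1, a cytoskeletal linker that binds AXIN1, with -0.85 and -1.19 and a mean of -1.02. No regulator passed 2-fold when background was not corrected, with median centring or on the Cy5 array by itself. GPC3 (-0.86) and GPC4 (-0.65), glypicans that present Wnt ligands at the cell surface, were also more than 1.5-fold lower, which makes 3 of 38 (4.58% of all genes), and no regulator was higher past 1.5-fold (1.51% of all genes). TLE1, a co-repressor of TCF factors, had -0.57. BCL9 and BCL9L, which tie beta-catenin to the transcription machinery, had -0.42 and -0.53. KREMEN1, the receptor with which DKK1 removes LRP6, had -0.50. Of the R-spondins, only RSPO3 was measured, with 0.43 and -0.32. The 3 regulators that were higher on both arrays were TLE5 (mean 0.27), CBY1 (0.23) and FRAT2 (0.17). Under the other processing and on each array alone, between 26 and 32 of the 38 had ratios below 0 and the median lay between -0.29 and -0.13.

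Of 37 genes of the polarity and calcium branches, 29 were measured, 8 above 0 and 21 below, with a median of -0.12. Of all measured genes, 49.6% were above 0. With median centring, under which 8382 of all 13704 genes were above 0, the split was 14 above and 15 below with a median of -0.04. None passed 2-fold. CAMK2D, a calcium-dependent kinase, was more than 1.5-fold higher with 0.39 and 0.96 and a mean of 0.67 (1.51% of all genes passed it), but no gene of the list was when background was not corrected or on the Cy5 array by itself. PLCB4, a phospholipase (-0.73), and PRICKLE1, a core polarity protein (-0.62), were more than 1.5-fold lower, as were 4.58% of all genes. Without background correction, with median centring or on the Cy5 array by itself, 1 gene of the list was, and by the software's ratio 6 were. RHOA and RAC1, small GTPases of the polarity branch, had 0.34 and 0.24. NFATC1 (-0.53), a calcium-regulated transcription factor, PRKCA (-0.58), a calcium-dependent kinase, and CELSR3 (-0.52), a polarity cadherin, were lower on both arrays.

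Of 37 targets of canonical signaling, 22 were measured, 13 above 0 and 9 below, with a median of 0.06. EDN1, which encodes endothelin 1, was more than 2-fold higher with 1.45 and 1.71 and a mean of 1.58, where the share of all genes was 0.212%. JUN (0.89), a transcription factor, and L1CAM (0.84), an adhesion molecule, were higher past 1.5-fold, and VEGFA, an angiogenic factor (-0.73), was lower past it. These are 3 higher and 1 lower of 22, against 1.51% and 4.58% of all genes. CCND1, which encodes cyclin D1, had 0.39 and 0.26, and MYC changed sign with -0.28 and 0.15. SP5, a transcription factor directly switched on by beta-catenin, had -0.43 and -0.16. Many of these targets also answer to other pathways, so the list does not measure the activity of Wnt signaling. The number above 0 ranged from 11 to 17 of the 22 over the alternatives and single arrays. The highest was with median centring, where the number of all genes above 0 was also highest, 8382 against 6797.

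**Figure D4:**
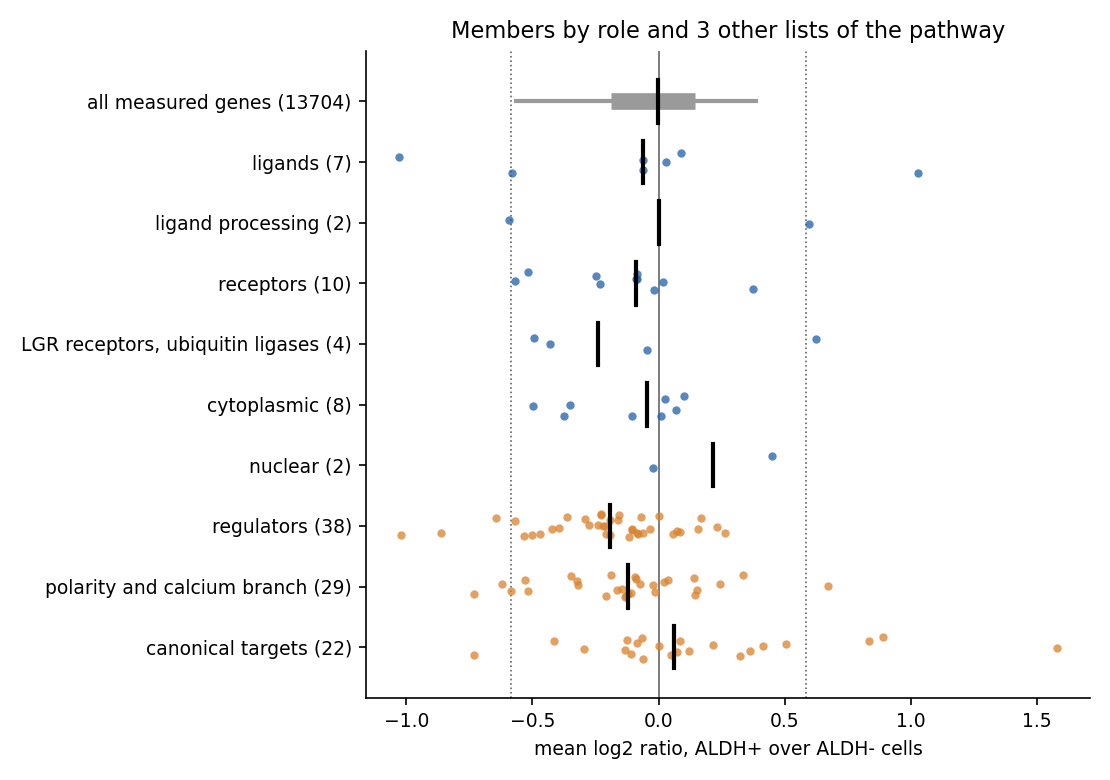
Mean log2 ratios of ALDH+ over ALDH- cells (x axis) for the measured members by role (blue points) and for the other 3 lists (orange points), with the number of genes in parentheses. Black bars are medians. For all measured genes the thick bar spans the middle 50% and the thin line the 5th to 95th percentiles, and dotted lines mark 1.5-fold. The regulators lie mostly to the left of 0, and the median of the receptors, -0.09, is nearer to that of all genes.

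The mean ratio of 21 members kept its sign under every alternative that was tried, and 12 had the other sign under at least 1, among them AXIN1, FZD9 and WNT10B. Each array alone was among the alternatives, so any member whose arrays differed in sign had to be among the 12, and no other member was. The 21 are thus the members with 1 sign on both arrays, 63.6% of those measured, against 69.8% of all measured genes. WNT5A had its lowest value without background correction, 0.80, and its highest with the software's ratio, 2.14. WNT6 ranged from -1.20 to -0.85, RNF43 from 0.52 to 0.81, LRP6 from -0.66 to -0.51 and PORCN from -0.80 to -0.35. When arrays were centred on their medians and not by loess, the share of higher among all genes past 2-fold was 54.1%, against 23.0% with loess, and WNT6 had less than a 2-fold difference. The members past 1.5-fold were then 3 higher and 1 lower.

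**Figure D5:**
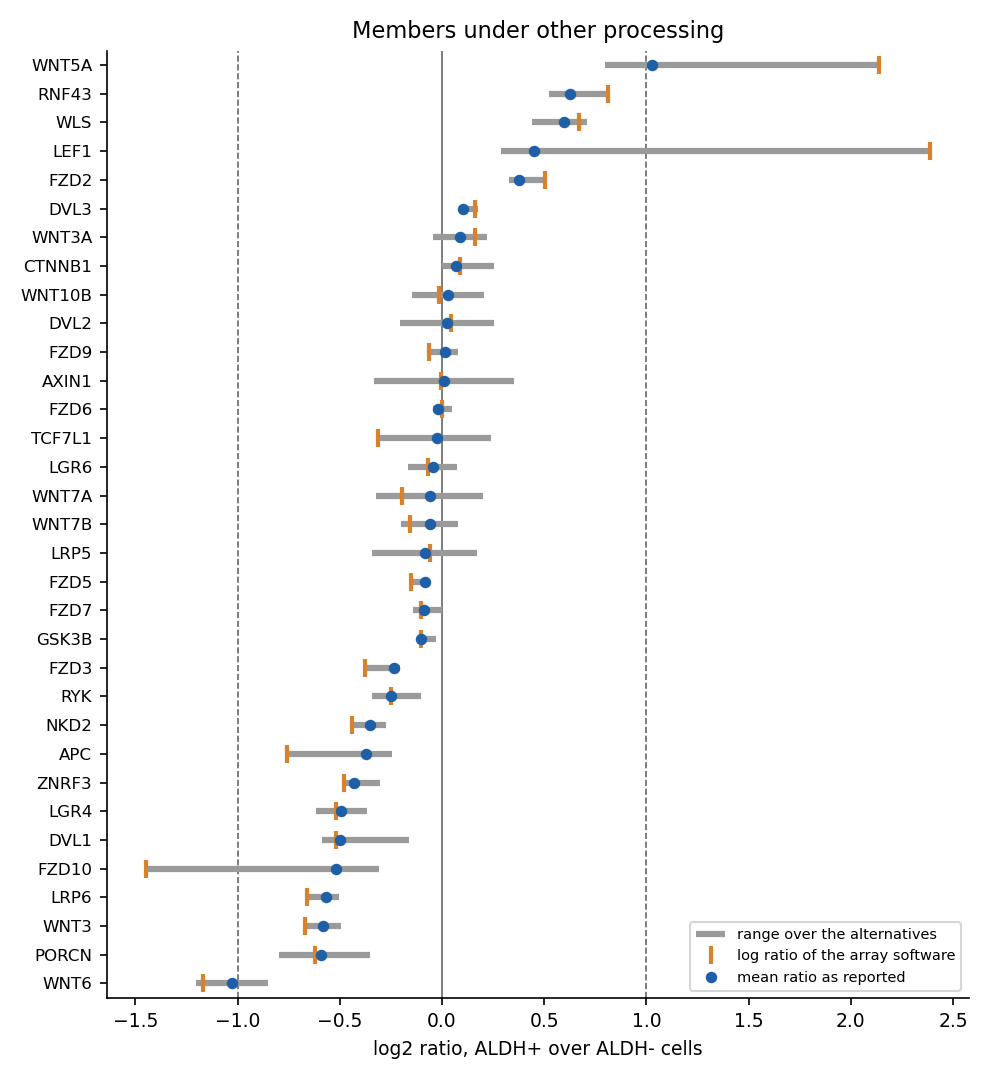
The mean log2 ratio of ALDH+ over ALDH- cells (x axis) of each measured member (y axis) as reported (blue points), its range over the alternatives and single arrays (gray bars), and its value by the array software (orange ticks). Dashed lines mark 2-fold. The widest ranges are those of LEF1, WNT5A and FZD10, all of which were dim in 1 population.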

How the data were processed

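Extracts of sorted RMG1 cells, 1 of ALDH+ and 1 of ALDH- cells, were hybridized to both arrays in opposite dyes and counted as 1 sample per population. Spot intensities and local backgrounds were deposited by the authors as read by Feature Extraction (version 10.7.3.1 in the file headers, 8.5.1.1 in the submitters' processing notes), with no normalization of these columns. They also deposited the software's log10 ratio and a table that joins the log10 ratios of both arrays and holds 4 further columns, not used here.

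Spot intensities were corrected with normexp (offset 50), normalized by loess within each array (limma 3.58.1, R 4.3.3), turned to log2 ratios of ALDH+ over ALDH- cells and averaged over spots and arrays (Python 3.11.15, numpy 2.4.6, pandas 2.3.3). This offset makes the ratios of dim probes smaller. Control spots and outlier spots (531 and 519 on the arrays) were left out. A gene was read by its brightest measured probe, where more than 50% of the spots had to pass the software's background flag in one of the populations on each array. All 65 members had a RefSeq symbol equal to the name on the array, and 14 had several probes.

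The members and the 3 other lists were chosen with earlier results of these data known. All members are accounted for, and of the other lists the named genes are those past 1.5-fold and, chosen after their values were seen, examples on either side. No test was possible with 1 sample per population, and the number of arrays limits the precision. Alternatives were other background corrections, the software's ratio, the joined table, median centring, each array alone, other filters on dim probes, the mean over probes, RefSeq names and 2-fold on each array. A filter by the negative control spots was chosen later, with the data seen. The steps were tested on simulated data, in which only probes well above background in both dyes of the Cy5 array were changed. Changes in dim probes were thus not covered. The probe sequence of PORCN and the value of 1 epithelial marker are not reported here.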

Additional observations from a re-analysis of the deposited data

How the results depend on the processing

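The count of members more than 2-fold higher, 1, fell to 0 without background correction, on the Cy3 array by itself, with 2-fold required on each array, and when both populations had to pass the background flag, which leaves out WNT5A. The count more than 2-fold lower, also 1, fell to 0 without background correction, with median centring, on the Cy3 array by itself and with 2-fold required on each array. Both were 2 with the software's ratio, which added LEF1 and FZD10. The joined table holds the same ratios, to within 1.7e-09 on the log2 scale, so its equal counts and medians are not a second check. Past 1.5-fold, 1 member in place of 3 was higher without background correction. In place of 2, lower members numbered 4 at the offset of 10, 6 by the software's ratio or the joined table, 5 on the Cy3 array by itself and 1 with median centring. The median of the members, -0.06, was -0.10 with the software's ratio and the joined table and -0.14 on the Cy3 array by itself. The causes were not tested. Of 424 values of single members under an alternative, 49 moved beyond the SD of the arrays, and 0 of those of WNT5A and WNT6 reversed. Many of the 424 could not move. The value of 1 array always lies within the SD of the mean of both, and the joined table repeats the software's ratio. RefSeq names and the filter on the negative control spots left every value as it was. The 49 of 424 is thus no measure of how stable the ratios were. The filter on the negative control spots, chosen after seeing the data, kept all 33 members and all counts.

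Median centring gave all genes a median of 0.07, from 0.56 and -0.43 on the single arrays. The share of higher among all genes past 2-fold was 23.0%, against 18.3% when no background was corrected, 33.3% by the software's ratio, 34.6% at the offset of 10 and 54.1% with median centring, with 53 genes higher and 45 lower in place of 29 and 97. No paired analysis was possible because each population had 1 sample and nothing was tested. Signals near those of empty spots limit WNT5A, LEF1, FZD10, APC and TCF7L1, the 5 measured members that missed the background flag in 1 population on 1 array, and differences between sorts of these cells cannot be estimated from 1 sample of each population.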
